A study of Sciaenops ocellatus with 24 samples.

Results

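The comparison set the highest against the lowest source oil dose given to red drum (Sciaenops ocellatus), a coastal fish of the Gulf of Mexico. It covered 6 of the 24 small RNA libraries of the series: 3 at 0.54% and 3 at 0.135% source oil. They were chosen by their labelled dose, with no control library among them. All came from pools of whole larvae taken 48 hours post fertilization, raised from brood stock embryos that had a formalin bath of 1 h. The labels call the material both whole larva and whole embryo. Source oil, labelled MASS, was a pipeline oil that stands in for the oil of the Deepwater Horizon well. It was blended into seawater to a high-energy water accommodated fraction, of which 0.54% or 0.135% by volume was mixed into fresh seawater, so the doses differed in amount and not in kind of oil. Whether the replicates were separate spawns or tanks is not in the labels, and p-values therefore speak only of the spread among the libraries, which may be technical. The larvae were whole animals, so fewer cells of a type and less RNA per cell cannot be told apart.

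MicroRNAs (miRNAs) are short RNAs, cut as the 5p or 3p arm from a hairpin, that lower the output of mRNAs they pair with through a short seed near their 5′ end. Members of a family share a seed on the matching arm, and genes of a cluster are copied together. Many are markers of a cell type in fish larvae: miR-206 and miR-133 of muscle, miR-9 and miR-124 of the nervous system, miR-144 and miR-451 of red blood cells, and miR-184 and miR-204 of the eye. The authors counted reads under mature miRNA names of miRBase, which carry species prefixes such as ola (medaka), dre (zebrafish) and ssa (Atlantic salmon). Each name is used here for the reads given to it, and its species and arm come from the name and were not checked against sequence.

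The 6 libraries held 7285368 to 9741582 reads under listed names at 0.54% and 7336908 to 8751205 at 0.135%, so these totals were alike. They are sums over the names of each table and not all reads of a library. Of 199 names listed at both doses, 12 were at 0 in all 6 libraries and 79 were at 0 in at least 1. Such zeros stood beside high counts of the same dose: chi-miR-183 had 498270 reads in replicate 3 of 0.54% and 434727 in replicate 3 of 0.135%, and 0 in the other 4 libraries. A read may also stand under more than 1 name, as in replicate 2 of 0.54%, where mdo-miR-128a-5p had 259163 and ola-miR-128 had 259207 reads, while ola-miR-128 was at 0 in replicates 1 and 3 of that dose. The main comparison used the 114 names with at least 1 read in each library and at least 10 reads in 3 libraries. They held 72.9% to 76.2% of the reads under the 199 shared names at 0.54% and 74.0% to 82.9% at 0.135%. Of 28 marker miRNAs of larval tissues, 21 were counted in all 6 libraries. The liver marker miR-122 and the muscle marker miR-1 were at 0 in 5 of them, the gut marker miR-192 was at 0 in all 6, and the leukocyte marker miR-223 had no listed name.

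At 0.54% source oil, miRNAs of red blood cells (2 of 2 names), of eye and sensory organs (3 of 4) and of the let-7 family (4 of 5) were lower than at 0.135%. Of the miR-17-92 family 5 of 10 names were higher, and so was muscle miR-133b. With edgeR's quasi-likelihood test at a Benjamini-Hochberg adjusted p under 0.05, 11 names were higher and 16 lower at 0.54%, that is 27 of 114 or 23.7% of the names tested (9.65% higher and 14% lower). These counts include near-identical names, with counts at most 2% apart. Without the copies 25 called names of 108 remain, as 2 pairs were called, of let-7 and of miR-19 names. In a fit to the 108 names 18 of the 25 stayed called. All changes were moderate: log2 fold changes of 0.54% over 0.135% among the 114 names lay between -0.78 and 0.93, with a median of -0.01. In 47 of the 114 names (41.2%) the 3 libraries of one dose did not overlap the 3 of the other, with 0.54% above 0.135% in 23 (20.2%) and below it in 24 (21.1%). Of the 27 called names 26 were among them. Levels are given in CPM, reads scaled to a common library size of these names by TMM, which corrects for library composition. Those TMM factors themselves separated the doses, with 1.02 to 1.16 at 0.54% and 0.886 to 0.951 at 0.135%. Scaled by library totals only, all names had a median of 0.22 and the split moved to 40 higher and 3 lower. Library totals here and below are the reads in the names tested, not all reads of a library. All 11 higher names were then still called, and of the 16 lower names ssa-miR-144-3p, ssa-miR-194b-5p and ssc-let-7i were. The other 13 lower names kept a negative log2 fold change but were not called. With the replicate number as a block, 17 of the 27 names stayed called among 21 calls in all. The 4 others under the block were not called without it: aca-miR-212-5p (adjusted p = 0.0491 with the block), cgr-miR-205 (0.0295), ssa-miR-206-5p (0.0307) and ssa-miR-365-5p (0.0299). Of the 27 names 2 were called in all 6 fits that dropped a library, 4 in 5, 2 in 4, 1 in 3, 6 in 2 and 12 in 1. The count depended on which library was left out, as it became 8 without replicate 2 of 0.54%, and 6, 8 and 3 without replicate 1, 2 or 3 of 0.135%. Without replicate 1 or 3 of 0.54%, 16 and 26 of the 27 names stayed called.

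**Figure D1:**
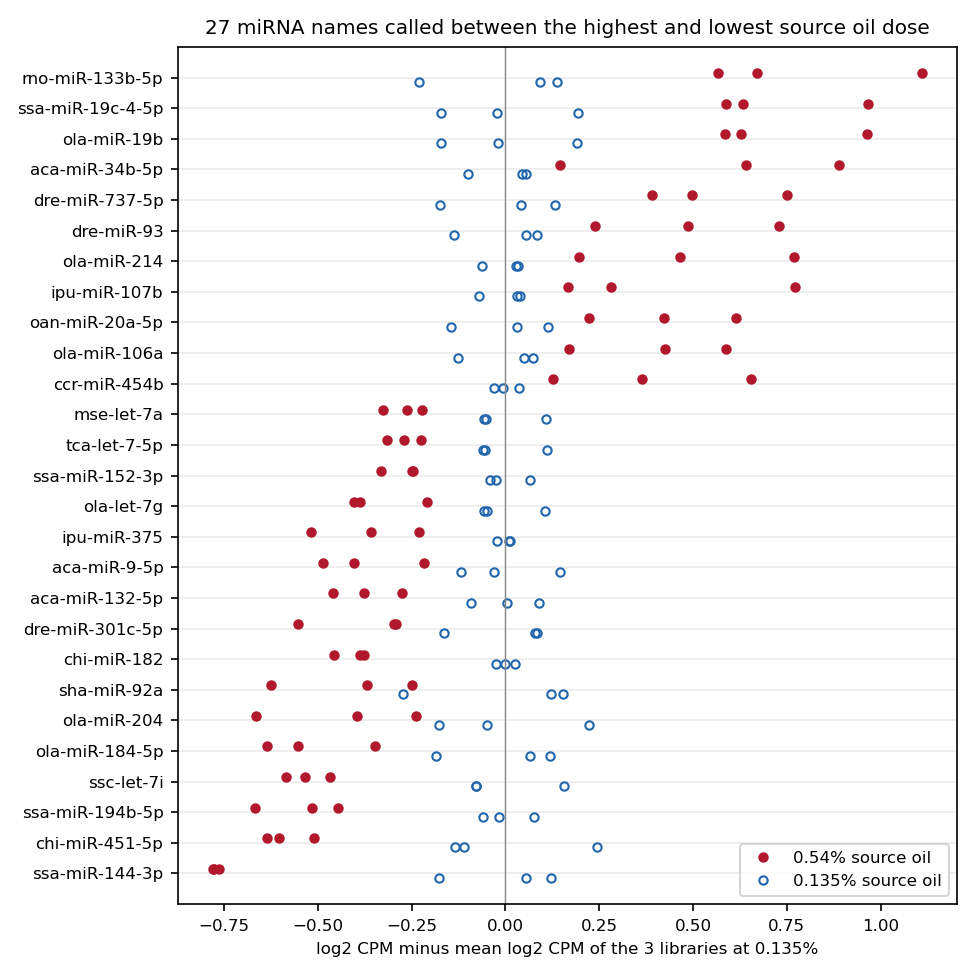
Level of each of the 27 called names in each library, as log2 CPM minus the mean log2 CPM of the 3 libraries at 0.135% source oil (filled red points: 0.54%; open blue points: 0.135%). The 11 higher names are at the top and the 16 lower names below, and only the points of sha-miR-92a overlap between the doses.

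**Figure D2:**
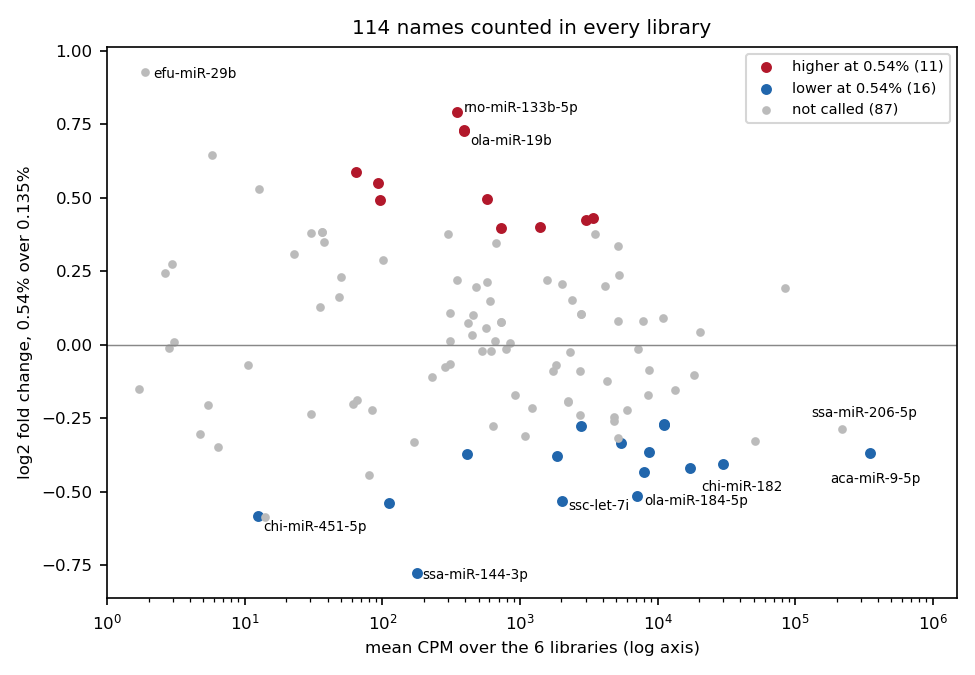
Log2 fold change of 0.54% over 0.135% source oil against the mean CPM over the 6 libraries (log axis) for the 114 names counted in every library. Red points are the 11 higher names, blue points the 16 lower names and grey points the 87 names not called, and called names occur from about the level of chi-miR-451-5p to that of aca-miR-9-5p.

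Both red blood cell miRNAs fell, against 14% lower over all names. The 2 red blood cell miRNAs are cut from 1 cluster that the erythroid factor GATA1 switches on, and both are needed for normal red cell maturation in zebrafish. ssa-miR-144-3p was at 133, 131 and 131 CPM at 0.54%, against 245, 199 and 234 CPM at 0.135%. The 3 high-dose libraries were nearly equal and all lay below the low-dose ones. The log2 fold change was -0.78 ± 0.12 (SE, adjusted p = 0.00446), the lowest of the 114 names, and dropping any 1 of the 6 libraries kept the call. chi-miR-451-5p was at 9.53, 9.74 and 10.4 CPM at 0.54%, against 13.5, 13.7 and 17.5 CPM at 0.135%. The groups did not overlap at this low level, with a log2 change of -0.58 ± 0.19 (SE, adjusted p = 0.0457) and a call in 1 of 6 fits with a library dropped. It was not called by DESeq2 (adjusted p = 0.0952), by library totals (0.0959) or with RLE size factors (0.0521).

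Of 4 eye and sensory names 3 fell, against 14% lower over all names (median of the list -0.42, against -0.01 over all names). By library totals the median was -0.19, none of the 3 was called lower, and chi-miR-96 was called higher. ola-miR-184-5p, of lens and cornea, was at 5374, 5693 and 6562 CPM at 0.54%, against 9066, 8738 and 7354 CPM at 0.135%. Every high-dose library was below every low-dose library, with a log2 change of -0.51 ± 0.11 (SE, adjusted p = 0.0101). chi-miR-182, which belongs to the miR-183 cluster of hair cells and photoreceptors, was at 26233, 24813 and 26021 CPM at 0.54%, against 34039, 33448 and 34659 CPM at 0.135%. Both groups were tight and well apart for this abundant miRNA, with a log2 change of -0.41 ± 0.08 (SE, adjusted p = 0.00814). ola-miR-204, of retinal pigment epithelium and lens, was at 5727, 6899.5 and 7693 CPM at 0.54%, against 8774, 10593 and 8029 CPM at 0.135%. Its log2 fold change was -0.43 ± 0.13 (SE, adjusted p = 0.04), and the adjusted p was 0.0578 with the replicate block. ola-miR-204 was called in 1 of 6 fits with a library dropped. It was not called with RLE size factors, with all 12 source oil libraries or with near-identical names collapsed. chi-miR-96, of the same cluster as miR-182, was not called, at 0.08 ± 0.11 (SE, adjusted p = 0.601), and the miR-183 names were at 0 in some libraries and did not enter this fit.

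Of 5 let-7 names 4 fell (median -0.27), against 14% lower over all names. By library totals the median was -0.04 and 1 name, ssc-let-7i, was called lower. let-7 accumulates as animals develop and restrains growth genes such as those of the RAS family. ssc-let-7i was at 1588, 1646 and 1722 CPM at 0.54%, against 2259, 2258 and 2653 CPM at 0.135%. The doses were clearly apart, with a log2 change of -0.53 ± 0.10 (SE, adjusted p = 0.00567) and a call whichever of the 6 libraries was dropped. ola-let-7g followed with -0.33 ± 0.10 (SE, adjusted p = 0.0372), at 4824 ± 368 CPM at 0.54% and 6073 ± 390.2 CPM at 0.135% (SD, n = 3 each). tca-let-7-5p and mse-let-7a, whose counts differed by at most 0.77% in any library and count as 1 signal, were at -0.27 ± 0.09 and -0.27 ± 0.09. Their adjusted p was 0.0457 for both, and 0.0547 and 0.0564 with the replicate block. ola-let-7e, at a mean of 32.9 CPM at 0.135%, was not called (-0.23 ± 0.16, adjusted p = 0.268). The let-7b names had zeros and did not enter this fit: aca-let-7b-5p had 29616 reads in replicate 1 of 0.54% and 29821 in replicate 3 of 0.135%, while ggo-let-7b had 26865 and 28422 reads in the other 2 libraries at 0.54%. Neither name had a read in replicates 1 and 2 of 0.135%.

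Of 10 names of the miR-17-92 family 5 rose and 1 fell (median 0.37), against 9.65% higher and 14% lower over all names. With library totals 7 were called higher and none lower (median 0.61), against 40 higher and 3 lower of all 114 names (median 0.22). These clusters are copied in dividing cells and hold several seeds. Both miR-19 names rose, ola-miR-19b with 572, 439.6 and 453 CPM at 0.54%, against 335, 259.9 and 289 CPM at 0.135%. No high-dose library reached down to the low-dose range, and the log2 fold change was 0.73 ± 0.14 (SE, adjusted p = 0.00567). ssa-miR-19c-4-5p had nearly the same counts (at most 0.49% apart) and a log2 fold change of 0.73 ± 0.14, so the pair counts as 1 signal. Of the 4 names numbered miR-17, miR-20, miR-93 and miR-106, 3 rose, each called in 1 of 6 fits with a library dropped. dre-miR-93 was at 793, 669.5 and 564 CPM at 0.54%, against 506, 434 and 496 CPM at 0.135%, with a log2 change of 0.50 ± 0.13 (SE, adjusted p = 0.0298). oan-miR-20a-5p changed by 0.42 ± 0.12 (SE, adjusted p = 0.0318) and ola-miR-106a by 0.40 ± 0.12 (SE, adjusted p = 0.0372), which had an adjusted p of 0.0578 under the replicate block. ola-miR-17 itself was at 0.34 ± 0.13 and was not called (adjusted p = 0.0922), and its replicate 3 at 0.54% lay within the low-dose range.

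The 1 lower name of the family was a miR-92 name, called in 1 of 6 fits with a library dropped. sha-miR-92a was at 16299, 15005 and 12566 CPM at 0.54%, against 21058, 21522 and 16014 CPM at 0.135%. It is the one called name whose groups overlapped, through replicate 3 of 0.135%, and its log2 fold change was -0.42 ± 0.13 (SE, adjusted p = 0.0435). Library totals gave sha-miR-92a a value of -0.18 (adjusted p = 0.491). hsa-miR-25-5p was at -0.22 ± 0.09 and not called (adjusted p = 0.0843). The miR-18 names, ssa-miR-18a-5p at -0.15 ± 0.09 and chi-miR-18b-5p at 0.29 ± 0.13, were not called.

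**Figure D3:**
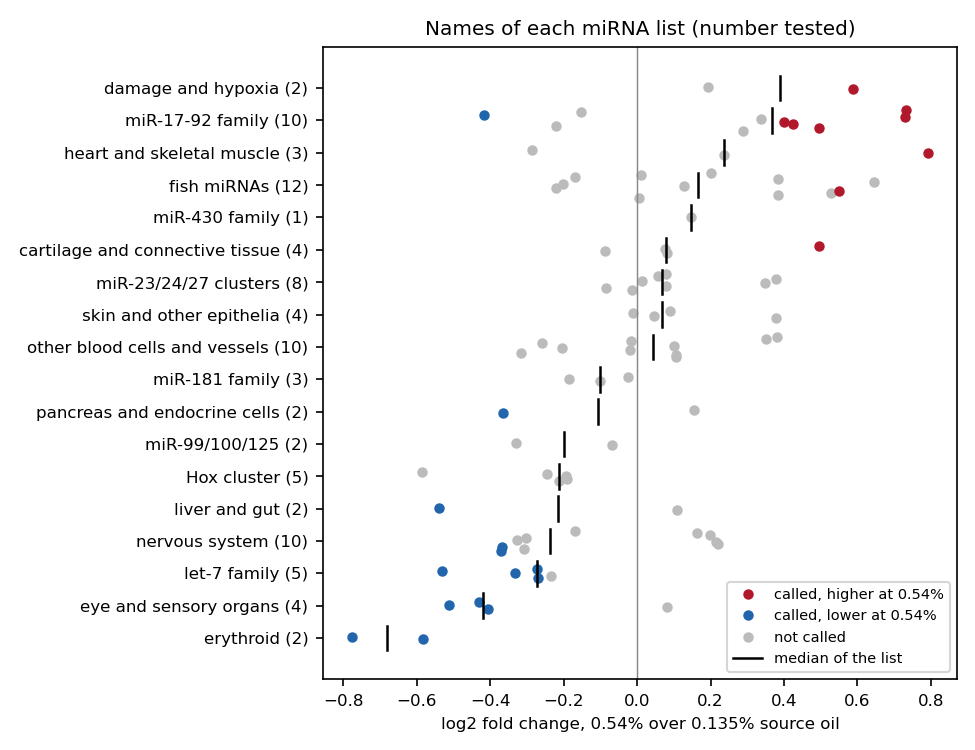
Log2 fold change of 0.54% over 0.135% source oil for every tested name of each miRNA list, with the number of names tested in brackets and the list median as a black bar. Red and blue points are called names and grey points are not called, and the erythroid list has the lowest median (-0.68) while the miR-17-92 family has 5 names called higher and 1 lower.

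The muscle names split. rno-miR-133b-5p, of skeletal muscle, rose and was at 546, 375 and 402 CPM at 0.54%, against 278, 215 and 269.8 CPM at 0.135%. Every high-dose library was above every low-dose one, with a log2 change of 0.79 ± 0.16 (SE, adjusted p = 0.00702), the largest rise among the called names. ssa-miR-206-5p is copied in 1 transcript with miR-133b in vertebrates and was the second most abundant name. It held 15.7% ± 0.66 of the reads under the 199 shared names at 0.54% and 17.1% ± 0.78 at 0.135% (SD, n = 3 each). Its log2 fold change was -0.29 ± 0.10, and it missed the threshold (adjusted p = 0.0561) although the groups did not overlap. ggo-miR-499a, of slow and cardiac muscle, was at 0.24 ± 0.11 and not called (adjusted p = 0.118). With library totals ggo-miR-499a was called higher (0.46, adjusted p = 0.0178).

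Of 10 nervous system names 2 fell and none rose (median -0.24), against 14% lower over all names. By library totals 2 others, ola-miR-124-5p and dre-miR-153b-5p, were called higher and none lower, with a median of -0.01. Of all 114 names 40 were then called higher. aca-miR-9-5p, of neural progenitors, was the most abundant name. It held 24.4% ± 0.75 of the reads under the 199 shared names at 0.54% and 28.1% ± 2.38 at 0.135%. Its CPM were 279202, 296099 and 336733 at 0.54%, against 360834, 383516 and 433337 at 0.135%. The log2 fold change was -0.37 ± 0.11 (SE, adjusted p = 0.0372), and under the replicate block, a pairing taken from these same counts, the adjusted p was 0.000485. aca-miR-9-5p was called in 2 of 6 fits with a library dropped, and library totals gave -0.14 (adjusted p = 0.113). aca-miR-132-5p, induced by activity in neurons, was at 383, 337 and 358 CPM at 0.54%, against 465, 493 and 435 CPM at 0.135%. The groups were apart, with a log2 change of -0.37 ± 0.11 (SE, adjusted p = 0.0372). Its cluster partner aca-miR-212-5p was at -0.31 ± 0.11 and mdo-miR-128a-5p at -0.33 ± 0.15, neither called. The neuronal miR-124 names had positive values, 0.20 ± 0.11 for ola-miR-124-5p and 0.22 ± 0.14 for dre-miR-124-4-5p, and were not called.

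Among endocrine and gut names, ipu-miR-375, of islet and other endocrine cells, was at 7674, 8382 and 6868 CPM at 0.54%, against 9685, 9900.0 and 9931 CPM at 0.135%. The high-dose libraries were all lower, with a log2 change of -0.36 ± 0.10 (SE, adjusted p = 0.0298). The pancreatic tgu-miR-217-5p was not called (0.15 ± 0.10). ssa-miR-194b-5p, of gut epithelium and liver, was at 92.2, 82.9 and 96.7 CPM at 0.54%, against 126, 130.1 and 139 CPM at 0.135%. It fell without overlap, by a log2 change of -0.54 ± 0.12 (SE, adjusted p = 0.0145) and stayed called in 5 of 6 fits with a library dropped. ola-miR-194-5p, a second name of the same miRNA number, was at 0.11 ± 0.11 and was not called. By library totals ola-miR-194-5p and tgu-miR-217-5p were called higher, and ipu-miR-375 was not called (-0.13, adjusted p = 0.409). ipu-miR-375 was called in 3 of 6 fits with a library dropped.

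Further names rose in the lists of damage, connective tissue and fish miRNAs. aca-miR-34b-5p, of a family that p53 induces, was at 95.2, 80.2 and 56.8 CPM at 0.54%, against 47.9, 53.4 and 53.0 CPM at 0.135%. The high-dose libraries spread widely and the lowest was close to the low-dose range, with a log2 change of 0.59 ± 0.18 (SE, adjusted p = 0.0435) and an adjusted p of 0.0675 with the replicate block. ola-miR-21, often raised in injured tissue, held 7.15% ± 0.16 of the reads under the 199 shared names at 0.54% and 5.61% ± 0.45 at 0.135%. Its log2 fold change did not pass the threshold (0.19 ± 0.10, adjusted p = 0.161). It was called higher by library totals (0.42, adjusted p = 0.0124). ola-miR-214, of skeletal and connective tissue precursors, changed by 0.49 ± 0.15 (SE, adjusted p = 0.0435), and 0.0547 was its adjusted p with the block. ola-miR-214 was called in 1 of 6 fits with a library dropped, and not with near-identical names collapsed. dre-miR-737-5p, a fish miRNA, was at 99.1, 107 and 127 CPM at 0.54%, against 77.8, 67.0 and 82.8 CPM at 0.135%. Its groups were apart, with a log2 change of 0.55 ± 0.14 (SE, adjusted p = 0.0298). It was the 1 called name of 12 tested in the fish list, against 23.7% called over all names. In that list rno-miR-3570 (0.65 ± 0.26), dre-miR-2187-5p (0.53 ± 0.22) and ccr-miR-722 (0.38 ± 0.18) were not called. Other connective tissue names, oan-miR-145-5p (-0.09 ± 0.09), aca-miR-199a-5p (0.08 ± 0.12) and oan-miR-214-5p (0.08 ± 0.11), were not called either. oan-miR-214-5p has the same miRNA number as ola-miR-214 and was more abundant, with means of 427 against 112 CPM at 0.54%. With reads summed by miRNA, edgeR gave miR-214 0.16 ± 0.08 (SE, adjusted p = 0.272). Library totals called 7 of the 12 fish names and 3 of the 4 connective tissue names higher, and none lower. Over all 114 names they called 40 higher and 3 lower.

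Of 25 tested names outside the lists, 2 rose and 2 fell, against 9.65% higher and 14% lower over all names. dre-miR-301c-5p and ccr-miR-454b were grouped with the miR-130 names by number, without a check of arm or seed, where dre-miR-301c-5p was lower, with a log2 change of -0.38 ± 0.11 (SE, adjusted p = 0.0372) and ccr-miR-454b rose, with 0.40 ± 0.13 (SE, adjusted p = 0.0457). Their adjusted p with the replicate block was 0.0578 for miR-301c and 0.0677 for miR-454b, and each was called in 1 of 6 fits with a library dropped. By library totals dre-miR-301c-5p was not called (-0.16, adjusted p = 0.32) and ccr-miR-454b was (0.64, adjusted p = 0.031). The other names of that group, hsa-miR-130b-5p (-0.32 ± 0.16), ssa-miR-301a-5p (-0.24 ± 0.10), ola-miR-130c (0.10 ± 0.14) and ipu-miR-130c (-0.02 ± 0.12), were not called. ssa-miR-152-3p was lower, with 2528 ± 84.1 CPM at 0.54% and 3059 ± 122 CPM at 0.135% (SD, n = 3 each) and a log2 change of -0.27 ± 0.09 (SE, adjusted p = 0.0457). With the block its adjusted p was 0.0534, by library totals it was at -0.04 (adjusted p = 0.676), and 1 of 6 fits with a library dropped called it. ola-miR-148 was at -0.12 ± 0.10. ipu-miR-107b, of a family hosted in genes of coenzyme A synthesis, was at 4936, 3511 and 3242 CPM at 0.54%, against 2969.5, 2753 and 2950.3 CPM at 0.135%. Replicate 1 at 0.54% stood above the other 2, and the log2 fold change was 0.43 ± 0.14 (SE, adjusted p = 0.0457), with 0.0638 under the block. ipu-miR-107b was called in 1 of 6 fits with a library dropped. It was not called with all 12 source oil libraries or with near-identical names collapsed.

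The remaining lists had no call. Under library totals 2 of 10 other blood and vessel names, 3 of 8 miR-23/24/27 names and 3 of 4 epithelial names were called higher. The same scaling called 40 of all 114 names higher. In the Hox clusters tgu-miR-196 was at -0.25 ± 0.09, hhi-miR-196 at -0.21 ± 0.09, sha-miR-10b at -0.19 ± 0.10 and mdo-miR-10b-5p, a near copy of its counts, at -0.19 ± 0.10, and all 5 names of that list were negative (median -0.21, which became 0.02 under library totals alone). The 10 names of other blood cells and vessels had a median of 0.04, with the leukocyte names tgu-miR-142-5p at 0.35 ± 0.15 and tgu-miR-155-5p at 0.38 ± 0.17, ssa-miR-222a-5p at -0.26 ± 0.12 and endothelial tgu-miR-126-5p at -0.02 ± 0.09. The 8 names of the miR-23/24/27 clusters had a median of 0.07, with ola-miR-27d-3p at 0.38 ± 0.19, mdo-miR-24-3p at 0.35 ± 0.23 and ssa-miR-24a-4-5p, equal in counts to fru-miR-24-5p, at 0.08 ± 0.11. Epithelial cgr-miR-205 came nearest to the threshold, at 0.38 ± 0.13 with adjusted p = 0.0501, while sha-miR-200a was at 0.09 ± 0.09, pma-miR-203a-3p at 0.05 ± 0.08 and rno-miR-203b-5p at -0.01 ± 0.36. ola-miR-430a, of the family that clears maternal mRNA, was at 0.15 ± 0.11, ola-miR-100 at -0.33 ± 0.14 and chi-miR-125b-5p at -0.07 ± 0.11. In the miR-181 list hsa-miR-181b-2-3p was at -0.19 ± 0.14, cfa-miR-181b at -0.10 ± 0.11 and ssa-miR-181b-5p at -0.02 ± 0.10. The largest value of all, efu-miR-29b at 0.93 ± 0.39, came with 2.51 ± 0.84 CPM at 0.54% and 1.28 ± 0.16 CPM at 0.135% and was not called (adjusted p = 0.0985).

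Of the 10 most abundant names 5 had zeros: cgr-miR-26a (2 of 6 libraries), ola-miR-181a-5p (1), ola-miR-128 (2), chi-miR-183 (4) and ipu-miR-203b (2). When names at 0 in some libraries were kept, 146 names could be tested and 6 were called, 1 higher and 5 lower (4.11% of the names, 0.685% higher and 3.42% lower). The common biological coefficient of variation was then 115%, against 11.3% in the names counted in every library. The calls included chi-miR-182 (adjusted p = 0.0156), ssa-miR-144-3p (0.0161), ssc-let-7i (0.0238) and ssa-miR-194b-5p (0.0322). The remaining calls were names at 0 at a whole dose. dre-miR-22a-5p had no read at 0.54%, against 144126, 132692 and 109723 reads at 0.135%, which is at least 132000-fold lower with 3 reads over the group as the floor (adjusted p = 0.000184). In the controls dre-miR-22a-5p had 112470, 0 and 0 reads, so it was also at 0 in 2 of 3 unexposed libraries. ssa-miR-22a-5p, of the same miRNA number and letter, held 135645, 119333 and 213335 reads at 0.54%, against 149436, 137648 and 0 reads at 0.135%. Reads of miR-22a were thus present at both doses under one name or the other. fru-miR-216a, a pancreatic miRNA, had 1061, 806 and 881 reads at 0.54% and none at 0.135%, at least 892-fold higher against the same floor (adjusted p = 0.00301). fru-miR-216a was also at 0 in control replicate 3 and in 2 of the 3 libraries at 0.27%. With the replicate block none of the 6 was called, with adjusted p between 0.112 and 0.206. DESeq2 called 41. Without replicate 1 or 3 of 0.54% the count was 2 and 1, and without replicate 2 or 3 of 0.135% it was 2 and 1.

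Reads were also summed over names with the same miRNA number and letter, which gave 130 testable miRNAs and 1 call (0.769%), miR-216a. fru-miR-216a was the only shared name in that sum, so its counts were those given above and summing tested nothing new. The reads of fru-miR-216b, of another letter, were not part of that sum. miR-22a was then at -0.70 ± 0.35 and not called (adjusted p = 0.257). miR-144 was at -0.77 ± 0.10, just short of the threshold with an adjusted p of 0.0522. miR-30c, named after its values were seen, had no read under its listed names at 0.54%, against 48215, 62451 and 9353 reads at 0.135%. It was not called (adjusted p = 0.0605). All listed names had a read in control replicate 1, so reads under other names are not seen. In replicates 1 and 2 of 0.135% both miR-22a names held similar counts, so the sum may hold some reads more than once. Under the block the summed counts gave 0 calls, and DESeq2 gave 38. Leaving out 1 library gave 3 calls without replicate 2 and 0 without replicate 3 of 0.54%, and 4, 2 and 2 without replicate 1, 2 or 3 of 0.135%.

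The control and 0.27% libraries had no part in the test and show where both doses lie. They were scaled together with the other source oil libraries over 109 names counted in all 12. For 26 of the 27 called names this was possible, and in 25 of them the mean at 0.27% lay between those at 0.135% and 0.54% (96.2%, against 70.6% of all 109 names). In 22 of the 26 the means were in one order from control through 0.135% and 0.27% to 0.54% (84.6%, against 52.3% of all 109). These are counts of means, 2 of which belong to the test itself, and carry no test. ssa-miR-144-3p averaged 260.1 ± 27.5, 227 ± 21.7, 176 ± 11.7 and 133 ± 4.43 CPM at 0, 0.135%, 0.27% and 0.54% (SD, n = 3 each), a lower mean at each dose. Its control libraries, at 232, 262 and 286 CPM, overlapped those at 0.135%, at 246, 203 and 233 CPM. ola-miR-184-5p averaged 12311 ± 1850.3, 8456 ± 989.9, 6564 ± 370.1 and 5938 ± 506 CPM over the same doses, with its widest step between control and 0.135%.

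Other names had similar means in the control and at 0.135%. ssc-let-7i averaged 2384 ± 208, 2407 ± 203, 1903 ± 119.9 and 1671 ± 64.3 CPM from control to 0.54%, and its libraries at 0.27% were at 1999.7, 1941 and 1769. chi-miR-182 averaged 34367 ± 664, 34304 ± 159, 29896 ± 1897 and 25985 ± 479.6 CPM. ola-miR-19b averaged 278 ± 19.5, 296 ± 36.1, 405 ± 41.0 and 494 ± 72.1 CPM, and rno-miR-133b-5p 254 ± 77.8, 256 ± 31.5, 387 ± 75.8 and 446 ± 90.4 CPM. In these 4 names the control and 0.135% means were within 1 SD of each other. aca-miR-34b-5p averaged 37.7 ± 5.83, 51.8 ± 3.31, 65.5 ± 13.1 and 78.6 ± 20.7 CPM, with its widest spread at 0.54%. 4 called names were out of order: in aca-miR-9-5p and ssc-let-7i the 0.135% mean was above the control, in dre-miR-737-5p it was below it, and mse-let-7a was nearly the same at 0.27% and 0.54%. aca-miR-9-5p averaged 340816 ± 16869, 395378 ± 34339, 331303 ± 54478 and 307275 ± 24345 CPM from control to 0.54%. Part of its difference between the doses thus lay in the 0.135% mean standing above the control. dre-miR-737-5p averaged 100.2 ± 8.60, 76.4 ± 7.15, 104 ± 18.3 and 112 ± 12.3 CPM, so the high dose was close to the control and 0.135% stood apart.

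**Figure D4:**
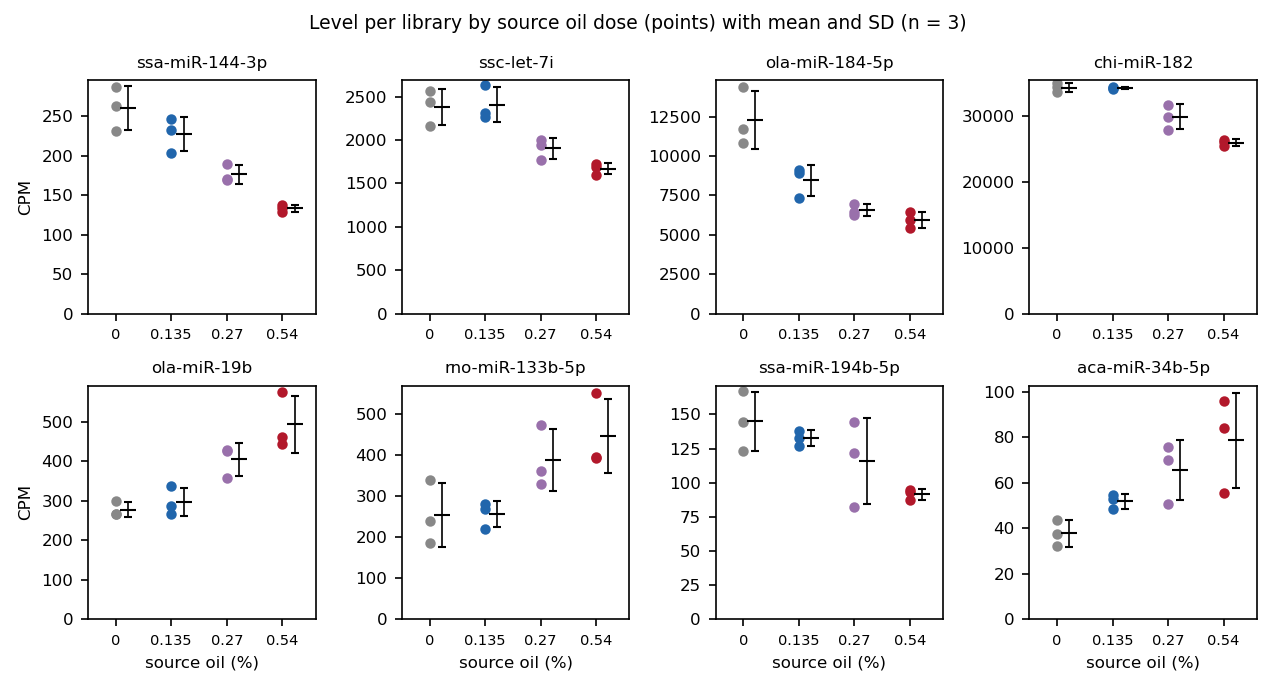
CPM of 8 called names in each source oil library by dose (points), with the mean and SD of the 3 libraries beside them, all scaled together. The means of ssa-miR-144-3p and ola-miR-184-5p fall from the control on, though control and 0.135% libraries of ssa-miR-144-3p overlap. ssc-let-7i, chi-miR-182, ola-miR-19b and rno-miR-133b-5p have similar means at 0 and 0.135%.

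Slick oil, labelled OFS, which had weathered at the sea surface, was given over the same ratio of doses, 5.00% against 1.25%, in separate libraries. Over 106 names counted in all 12 libraries, the difference between highest and lowest dose was tested for a difference between the oils. edgeR called 0 names (0%), with 26 at an unadjusted p under 0.05 (24.5%), and DESeq2 called 3. Of the 27 names called for source oil, 17 had the same sign in slick oil (63%, against 56.6% of all 106), and 6 were called in slick oil, where 14 of 106 names were (13.2%). Those 6 were ssa-miR-144-3p, ssc-let-7i, chi-miR-182, ssa-miR-194b-5p and aca-miR-132-5p, lower in both oils, and dre-miR-737-5p, higher in both. ssa-miR-144-3p was at -0.74 ± 0.17 in source oil and -1.26 ± 0.18 in slick oil, a difference of 0.52 ± 0.25 (SE, adjusted p = 0.199). ssc-let-7i was at -0.50 ± 0.13 in source oil and -0.68 ± 0.14 in slick oil, a difference of 0.18 ± 0.19 (SE, adjusted p = 0.59).

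Some names called in source oil were nearer to 0 in slick oil, and their difference between oils was not called. rno-miR-133b-5p was at 0.83 ± 0.24 in source oil and -0.00 ± 0.24 in slick oil, a difference of 0.83 ± 0.33 (SE, adjusted p = 0.175). ola-miR-19b was at 0.76 ± 0.15 in source oil and 0.20 ± 0.15 in slick oil, a difference of 0.57 ± 0.21 (SE, adjusted p = 0.136). ola-miR-184-5p was at -0.48 ± 0.14 in source oil and -0.13 ± 0.14 in slick oil, a difference of -0.36 ± 0.20 (SE, adjusted p = 0.268). The 3 names that DESeq2 called, named here after their values were seen, were aca-miR-9-5p, hsa-miR-130b-5p and ssa-miR-22b-5p, with adjusted p of 0.0422 each. In edgeR aca-miR-9-5p was at -0.33 ± 0.17 in source oil and 0.37 ± 0.17 in slick oil, a difference of -0.70 ± 0.24 (SE, adjusted p = 0.134). Library totals alone called 28 names, all with a higher response in source oil. The 5.00% slick libraries had the smallest sums, with 2820454 to 4346165 reads under listed names. Without replicate 3 of 1.25% slick oil 4 names were called, and without replicate 3 of 0.54% source oil 2.

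**Figure D5:**
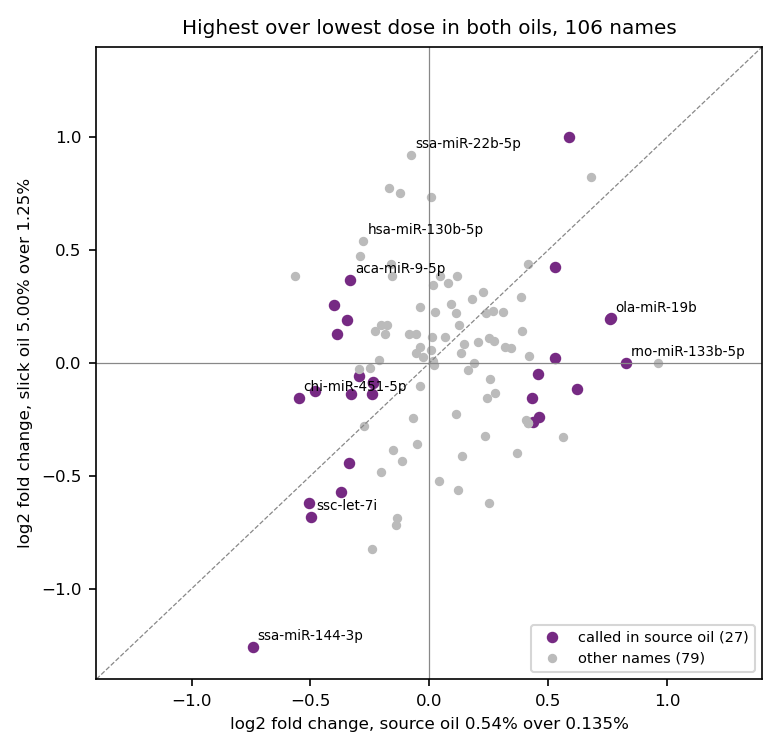
Log2 fold change of the highest over the lowest dose in source oil (0.54% over 0.135%, x axis) and slick oil (5.00% over 1.25%, y axis) for 106 names, with the 27 names called in source oil in purple and the diagonal dashed. ssa-miR-144-3p is far down in both oils, whereas rno-miR-133b-5p is at 0.83 in source oil and near 0 in slick oil.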

How the data were processed

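Per the labels' protocols, RNA of pooled samples was purified by miRNeasy and sequencing libraries were built by the NEBNext small RNA kit. The authors deposited raw read counts per mature miRBase name, 1 table per dose with that oil's controls. All 200 names of the 0.54% table had a read in control replicate 1. Not given in the sources used here were the aligner, the miRBase release and the handling of multi-mapping reads. The submitters' processing notes name DESeq2, whose tables against control were not used here. All columns were matched to samples by label and 0 stayed unmatched.

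The 0.54% and 0.135% libraries were joined on 199 shared names (cfa-miR-129, only in the 0.54% table, was left out). edgeR 4.0.16 in R 4.3.3 (TMM, glmQLFit, glmQLFTest) was run on the counts without covariates over 3 sets: names reaching 10 counts in 3 or more libraries without a 0 (114), the same filter with zeros allowed (146), and counts summed by miRNA (130). Standard errors were taken as log2 fold change (absolute) over the root of F. An interaction term compared source with slick oil over 106 names. Alternatives were RLE size factors, library totals, other count filters, DESeq2 1.42.0, leaving out each library, all 12 source oil libraries, near-identical names (at most 2% apart) collapsed, and a replicate block. Library totals were the reads of the names in each fit, without TMM factors, and not all reads of a library. The code was tested on simulated data. Same-numbered replicates of both doses deviated together (correlations of 0.29, 0.13 and 0.31 across names), each more than with any other number, so the blocked value is given where it changed a call. The pairing comes from these correlations, not from the labels. Replicates of a dose differed by more than sampling noise (chi-square tests).

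The text names all called names (up to 15 in a direction by rule, and the 16th lower name, whose counts nearly equal another's), names at 0 at 1 dose, the most abundant names and, per list, up to 4 members with the smallest p, beside some list members chosen after their values were seen. The comparison and the lists, defined by miRNA number, were chosen with earlier results of these data known. No miRNA sequences were used here.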

Additional observations from a re-analysis of the deposited data

How the results depend on the processing

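Over the 114 names counted in every library, the 27 calls became 43 under library totals alone and 3 to 39 when 1 library was left out. The other alternatives gave 18 to 28: 21 with RLE size factors, 21 without a count filter, 28 with at least 100 counts, 27 with DESeq2, 21 with the replicate block, 25 with all 12 source oil libraries and 18 with near-identical names collapsed. No called name changed sign under any of these. Over all 146 names the 6 calls became 2 under library totals, 41 with DESeq2, 0 with the replicate block and 1 to 7 without 1 library. The 1 call of summed counts became 2 under library totals, 7 with at least 100 counts, 38 with DESeq2, 0 with the block and 0 to 4 without 1 library. The 0 calls of the difference between oils became 28 under library totals and 3 with DESeq2, stayed 0 with the block, and were 0 to 4 without 1 library. dre-miR-22a-5p and fru-miR-216a could not be fitted without a library of the dose that held their reads, as the count filter then removed them. The cause of these changes was not tested, apart from fewer names or libraries entering by construction. Small changes in names under about 10 CPM, such as efu-miR-29b, are limited by depth.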
